A study of Mus musculus with 8 samples.

Results

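Transcripts of 8 ADAMTS genes (Adamts1, Adamts2, Adamts4, Adamts5, Adamts8, Adamts9, Adamts10 and Adamts15) were examined in mouse muscle stem cells sorted by the strength of a Myf5 reporter. The 8 genes were taken by name from a table of 27554 genes, which holds 19 ADAMTS proteases in all. They were chosen by name, with their read counts in these 8 libraries and the comparisons between the groups already known, and no level, fold change or threshold is stated, so there is no border to show. The differences of the 8 genes between groups are therefore a description of these libraries and not an independent test.

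The cells came from hindlimb muscle of C57BL/6NTac mice carrying both a Pax7 allele with ZsGreen (Pax7tm3955(T2A-ZsGreen)Tac) and a Myf5 allele with E2Crimson (Myf5tm3956(T2A-E2Crimson)Tac). All groups share both reporter alleles and were gated as positive for Pax7, and no treatment is listed. Myf5High and Myf5Low were gated at the top and bottom of E2Crimson brightness, so cells of middle brightness were not measured. Polyadenylated RNA was sequenced from 4 groups (female Myf5High, female Myf5Low, male Myf5High and male Myf5Low) with 2 libraries each, and a library came from 4 pooled mice, per the labels. The age of the mice is not given in the sources used here.

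ADAMTS proteins are secreted zinc metalloproteases whose catalytic domain is followed by thrombospondin repeats, which help them bind the extracellular matrix. The hyalectanase group (here Adamts1, Adamts4, Adamts5, Adamts8, Adamts9 and Adamts15) cleaves proteoglycans that bind hyaluronan, such as versican and aggrecan. Adamts2 removes the amino-terminal propeptide of fibrillar procollagens, and Adamts10 binds fibrillin microfibrils. In muscle, cleavage of versican by ADAMTS proteases accompanies the fusion of myoblasts, and ADAMTS1 from macrophages has been described as a signal to muscle stem cells.

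The coding sequence around the catalytic zinc site is shown for each of the 8 genes, because this site is what makes them proteases and sets them apart from the ADAMTS-like genes described further on. Each window is 72 bases of coding strand, 5′ to 3′, from the GENCODE M21 transcripts (GRCm38). The capitals mark the 36 bases that encode the zinc-binding histidine motif and the aspartate after it.
Adamts15: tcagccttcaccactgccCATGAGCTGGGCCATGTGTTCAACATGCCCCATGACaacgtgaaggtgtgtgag
Adamts8: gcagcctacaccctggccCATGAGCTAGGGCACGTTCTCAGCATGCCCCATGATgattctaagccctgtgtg
Adamts5: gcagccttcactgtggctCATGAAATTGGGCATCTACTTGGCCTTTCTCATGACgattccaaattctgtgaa
Adamts4: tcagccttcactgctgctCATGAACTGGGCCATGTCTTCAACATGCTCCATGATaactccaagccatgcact
Adamts1: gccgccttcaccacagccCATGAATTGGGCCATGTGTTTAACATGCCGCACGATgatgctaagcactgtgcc
Adamts9: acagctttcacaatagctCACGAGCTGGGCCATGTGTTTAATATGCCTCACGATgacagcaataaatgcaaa
Adamts2: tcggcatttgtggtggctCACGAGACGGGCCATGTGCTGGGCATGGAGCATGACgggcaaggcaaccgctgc
Adamts10: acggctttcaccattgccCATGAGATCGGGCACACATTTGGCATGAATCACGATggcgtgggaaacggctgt

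In all 8 genes the window is coding and runs across an exon junction, so each stretch of genome below includes an intron. For Adamts15 it joins exons 2 and 3 (chr9:30911234-30911708, minus strand), and for Adamts8 exons 3 and 4 (chr9:30952703-30953399, plus strand). For Adamts5 it joins exons 2 and 3 (chr16:85877994-85887844, minus strand), and for Adamts1 exons 3 and 4 (chr16:85799170-85799563, minus strand). The closest windows were those of Adamts4 and Adamts15, with 55 of 72 bases identical (76.4%). The 15 pairs within the hyalectanase group shared 58.3% to 76.4% of bases, and the 12 pairs of a hyalectanase with Adamts2 or Adamts10 shared 47.2% to 59.7%. The motif was found in 19 of 19 ADAMTS proteases and in 0 of 5 genes named Adamtsl, against 41 of 21901 protein-coding genes (0.187%). It was searched on the coding strand in 1 transcript per gene.

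Counts assigned to genes totalled 3140361 to 4238427 for a library, and 3 counts, the least taken as detectable, corresponded to 0.672 to 0.986 CPM. CPM (counts scaled to a common library total after TMM) is the unit of level throughout. Pax7 was abundant in every library, at 1000 to 1500 CPM, and Myf5 transcript was higher in Myf5High than in Myf5Low in all 4 pools. The fractions nevertheless overlapped for Myf5 (39.5 to 128 CPM in Myf5High, 25.0 to 49.9 CPM in Myf5Low), and its log2 fold change was called over both sexes (1.19, edgeR adjusted p 0.0284) and not within females (1.70, edgeR adjusted p 0.0649, or 0.0409 and called with the pool as a block) or males (0.69, edgeR adjusted p 0.808). The 9 muscle stem cell markers summed to 2992 to 4081 CPM in Myf5High and 3107 to 3356 CPM in Myf5Low, and 2 of them were called higher in Myf5High (Myf5 and Calcr, the latter with a log2 fold change of 0.89 and an edgeR adjusted p of 0.0389, or 0.0711 with the pool as a block).

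The 8 genes of myogenic commitment summed to 114 to 936 CPM in Myf5High and 357 to 1049 CPM in Myf5Low, which overlapped, and 2 of the 8 were called, both lower in Myf5High. Myog, a factor of myogenic differentiation, had 0 to 1.27 CPM in Myf5High against 93.7 to 533 CPM in Myf5Low (edgeR adjusted p 2.24e-08). Mymk, needed for myoblast fusion, had 0 counts in all 4 Myf5High libraries against 4.30 to 67.7 CPM in Myf5Low (edgeR adjusted p 0.000108). Myod1, a factor of myogenic commitment, had 21 to 73.7 CPM in Myf5High against 74.3 to 140 CPM in Myf5Low (log2 fold change -0.97, edgeR adjusted p 0.103). It was called with the pool as a block (edgeR adjusted p 0.0486) and by DESeq2, which also called Myog and Mymk. The sarcomere genes Ttn and Myh3 were highest in male Myf5High replicate 1, at 627 and 175 CPM, and Ckm had a log2 fold change of 0.23 (edgeR adjusted p 0.948). The part of these genes in the ADAMTS levels was not tested.

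Markers of other cells were present too. The 8 immune genes summed to 15.1 to 35.3 CPM in Myf5High and 45.3 to 92.7 CPM in Myf5Low, 8 endothelial genes to 283 to 618 and 428 to 922 CPM, and 8 mural genes to 345 to 494 and 365 to 755 CPM. The 8 glial genes summed to 64.4 to 119 and 90.7 to 185 CPM, lower in Myf5High in all 4 pools, and 7 tenocyte genes to 14.5 to 51.4 and 23.2 to 44.5 CPM. The immune sums did not overlap between the fractions, and the others overlapped. Called were 1 of 6 tested immune genes (C1qa, log2 fold change -2.13, edgeR adjusted p 0.00771) and 1 of 8 mural genes (Acta2, -1.73, edgeR adjusted p 0.000389), both lower in Myf5High. DESeq2 called these and the immune gene Lyz2, which stood at -1.90 (edgeR adjusted p 0.0587). The most abundant mural gene, Notch3, stood at 0.62 (edgeR adjusted p 0.32). By edgeR 0 of the 8 endothelial, 7 glial and 5 tenocyte genes tested were called (4, 1 and 1 at an unadjusted p under 0.05), and DESeq2 called the endothelial genes Tek, higher, and Egfl7, lower. Tek, higher in Myf5High in all 4 pools, stood at 0.99 (edgeR adjusted p 0.0577, and 0.0288 with the pool as a block). The part of these markers in the results below was not tested.

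Adamts15, Adamts8 and Adamts5 were higher in Myf5High than in Myf5Low, and for each of them all 4 Myf5High libraries lay above all 4 Myf5Low libraries. The question of this comparison is which transcripts differ between the ends of the Myf5 reporter range, over both sexes. A gene is called here when its adjusted p (edgeR's quasi-likelihood test, Benjamini-Hochberg adjustment over 11730 genes) is under 0.05. Of the 8 genes, 3 were called higher in Myf5High and 0 lower, in a comparison where 0.767% of all tested genes were called higher and 0.435% lower (1.2% in all). At an unadjusted p under 0.05 there were 5 of 8, beside 9.36% of tested genes. Separation of all 4 Myf5High libraries above all 4 Myf5Low libraries, seen in 3 of 8, occurred in 2.36% of tested genes. The median log2 fold change of the 8 was 0.77, beside -0.02 over all tested genes. In pooled sorted cells, more cells that make a transcript and more transcript per cell cannot be told apart.

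Adamts15 (ENSMUSG00000033453, chr9:30899155-30922452), a hyalectanase, had the largest log2 fold change of the 8 in this comparison. It had 157 and 137 CPM in the female Myf5High libraries, against 38.7 and 40.5 CPM in female Myf5Low. In males it had 140 and 152 CPM in Myf5High and 43.9 and 51.8 CPM in Myf5Low. The levels fell into 2 narrow and separate ranges in both sexes. Means were 146 ± 9.46 CPM in Myf5High against 43.7 ± 5.82 CPM in Myf5Low (SD, n = 4 each). The fitted log2 change came to 1.75 (SE 0.193, adjusted p 6.8e-05 in edgeR), and within the 4 pools the ratio of Myf5High to Myf5Low ran from 2.93 to 4.04. It ranked 7 by p among the tested genes and stayed called without any single library, with adjusted p-values up to 0.000875 (edgeR).

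Adamts8 (ENSMUSG00000031994, chr9:30942562-30963838), another hyalectanase, had the next largest difference at lower levels. Female Myf5High libraries had 32.0 and 40.5 CPM, and female Myf5Low libraries 10.4 and 7.29 CPM. Male Myf5High libraries had 47.1 and 55.6 CPM, and male Myf5Low libraries 23.1 and 21 CPM. Within each fraction, both male libraries were above both female libraries. The fitted log2 change came to 1.63 (SE 0.267, adjusted p 0.00283 in edgeR), with pool ratios from 2.04 to 5.55. It stayed called without any single library, with edgeR adjusted p-values up to 0.0251. Exons of Adamts8 share 489 bases with Gm29724 on the opposite strand, and the strand setting of the counting is not given in the sources used here, so a part of these counts could belong to that gene.

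**Figure D1:**
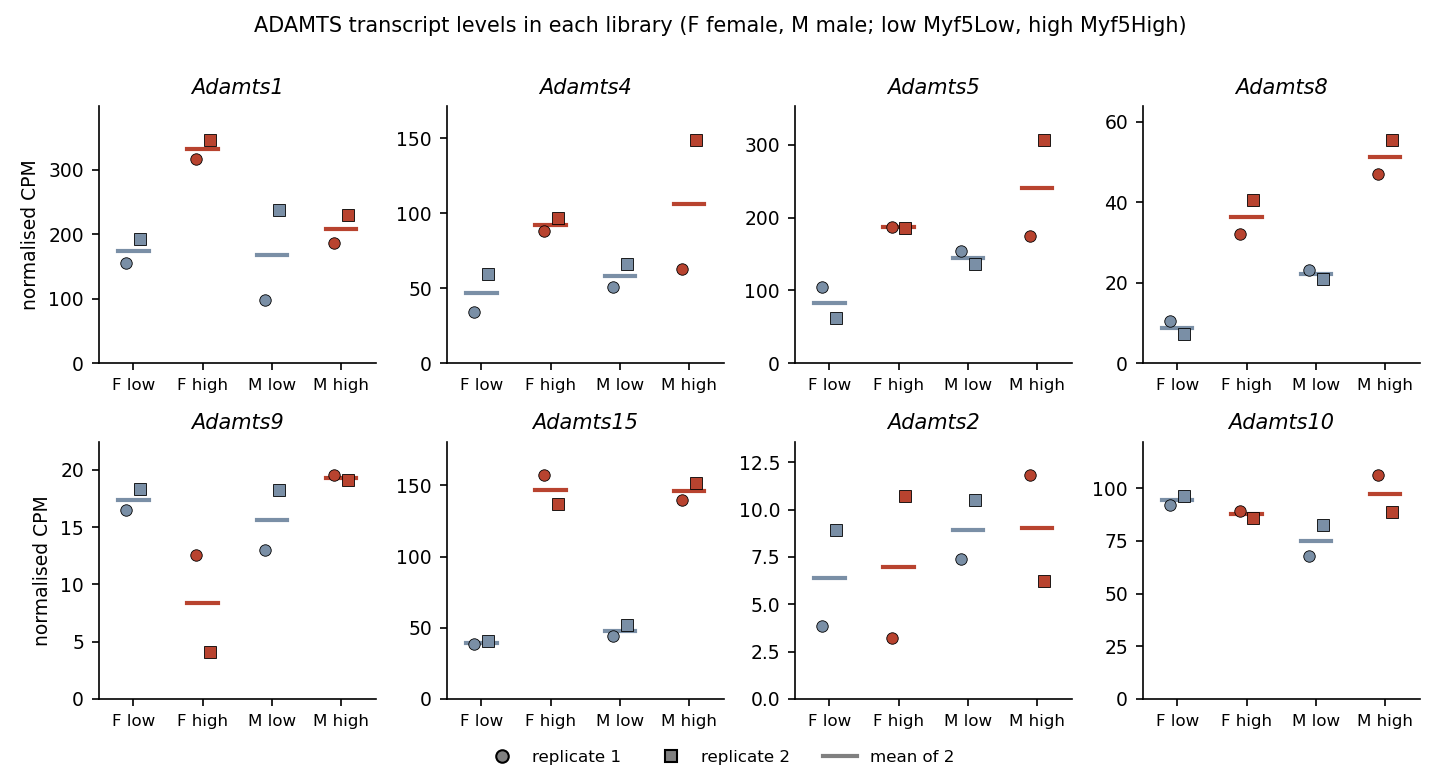
Normalised CPM (vertical axes, starting at 0 and scaled for each gene) of the 8 ADAMTS genes in each library, by sex and fraction; symbols are libraries and bars are means of 2. Adamts15, Adamts8 and Adamts5 show all Myf5High points above all Myf5Low points, while Adamts2 and Adamts10 overlap between the fractions.

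Adamts5 (ENSMUSG00000022894, chr16:85856173-85901828), the aggrecanase also known for cleaving versican, was called with a smaller difference. It had 187 and 186 CPM in female Myf5High, against 104 and 61.6 CPM in female Myf5Low. In males it had 174 and 307 CPM in Myf5High and 154 and 136 CPM in Myf5Low. The gap between the fractions was narrow in male pool 1, where the ratio was 1.13, and wide in female pool 2, where it was 3.02. Its fitted log2 change came to 0.95 (SE 0.218, adjusted p 0.0356 in edgeR). The call was lost without 6 of the 8 libraries: female Myf5High replicate 1 (edgeR adjusted p 0.113) or 2 (0.0909), female Myf5Low replicate 2 (0.214), male Myf5High replicate 2 (0.0838), and male Myf5Low replicate 1 (0.0621) or 2 (0.122). Without any single library the log2 fold change stayed between 0.72 and 1.16.

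Adamts4 (ENSMUSG00000006403, chr1:171250421-171260637), the other classical aggrecanase, was higher in Myf5High in all 4 pools but did not pass the threshold. It had 88.3 and 96.5 CPM in female Myf5High, against 34.1 and 59.7 CPM in female Myf5Low. In males it had 62.7 and 149 CPM in Myf5High and 50.9 and 65.9 CPM in Myf5Low. The fractions overlapped, since male Myf5High replicate 1 lay below male Myf5Low replicate 2, each in a different pool. The log2 fold change was 0.91 (SE 0.264, 95% interval 0.36 to 1.47, edgeR adjusted p 0.139). It became called without male Myf5High replicate 1 (log2 fold change 1.16, edgeR adjusted p 0.00646) and without a filter on low counts (edgeR adjusted p 0.00578). With Adamts15, Adamts8 and Adamts5 it made 4 of 8 genes that were higher in Myf5High in all 4 pools, against 7.51% of tested genes.

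Adamts1 (ENSMUSG00000022893, chr16:85793827-85803113) had the highest level of the 8 per length of transcript, and its difference between the fractions did not pass the threshold. It had 317 and 347 CPM in female Myf5High, against 155 and 193 CPM in female Myf5Low. In males it had 187 and 230 CPM in Myf5High and 98.3 and 238 CPM in Myf5Low. Female fractions did not overlap, while male Myf5Low replicate 2 was the highest of the male libraries. The log2 fold change was 0.62 (SE 0.229, 95% interval 0.14 to 1.10, edgeR adjusted p 0.32), and without male Myf5Low replicate 2 it was 1.01 and called (edgeR adjusted p 0.0225). Adamts1 is also known as an early response gene, and 16 immediate early genes of tissue dissociation summed to 30460 to 39010 CPM in female Myf5High, against 21860 to 29230 CPM in female Myf5Low. In males their sums were 22940 to 38670 CPM in Myf5High and 23580 to 26390 CPM in Myf5Low. All 16 had a positive log2 fold change between the fractions (median 0.36), 6 with an unadjusted p under 0.05, and edgeR called 0. Ier3 stood at 1.03 (edgeR adjusted p 0.0505) and was called with the pool as a block (edgeR adjusted p 0.00879) and by DESeq2. Between the sexes, 3 of the 16 were called higher in females by edgeR and 5 by DESeq2. The part of these genes in the levels of Adamts1 and the other ADAMTS genes was not tested.

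Adamts9 (ENSMUSG00000030022, chr6:92772699-92943492), a large hyalectanase, was low and was the only one of the 8 with a negative fold change. It had 12.6 and 4.07 CPM in female Myf5High, against 16.5 and 18.3 CPM in female Myf5Low, and 19.5 and 19.1 CPM in male Myf5High and 13.0 and 18.2 CPM in male Myf5Low. These values rest on 16 to 81 counts per library. The log2 fold change was -0.39 (SE 0.374, 95% interval -1.17 to 0.40, edgeR adjusted p 0.876). Adamts9 exons share 1381 bases with A730049H05Rik on the opposite strand, which had 0 to 13 counts per library.

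Adamts2 (ENSMUSG00000036545, chr11:50602084-50807573) and Adamts10 (ENSMUSG00000024299, chr17:33524204-33553782), outside the hyalectanase group, overlapped between the fractions. Adamts10 had 85.8 to 106 CPM in Myf5High and 67.9 to 96.4 CPM in Myf5Low. Its log2 fold change was 0.13 (95% interval -0.27 to 0.53, edgeR adjusted p 0.928). Adamts2 had 3.23 to 11.8 CPM in Myf5High and 3.85 to 10.5 CPM in Myf5Low, from 10 to 49 counts per library. Its log2 fold change was 0.07 with a wide interval of -1.03 to 1.18 (edgeR adjusted p 0.989), and the sign changed without any 1 of 4 libraries. These libraries do not decide whether Adamts2 changed within that interval, and the part of sequencing depth in its width was not tested.

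**Figure D2:**
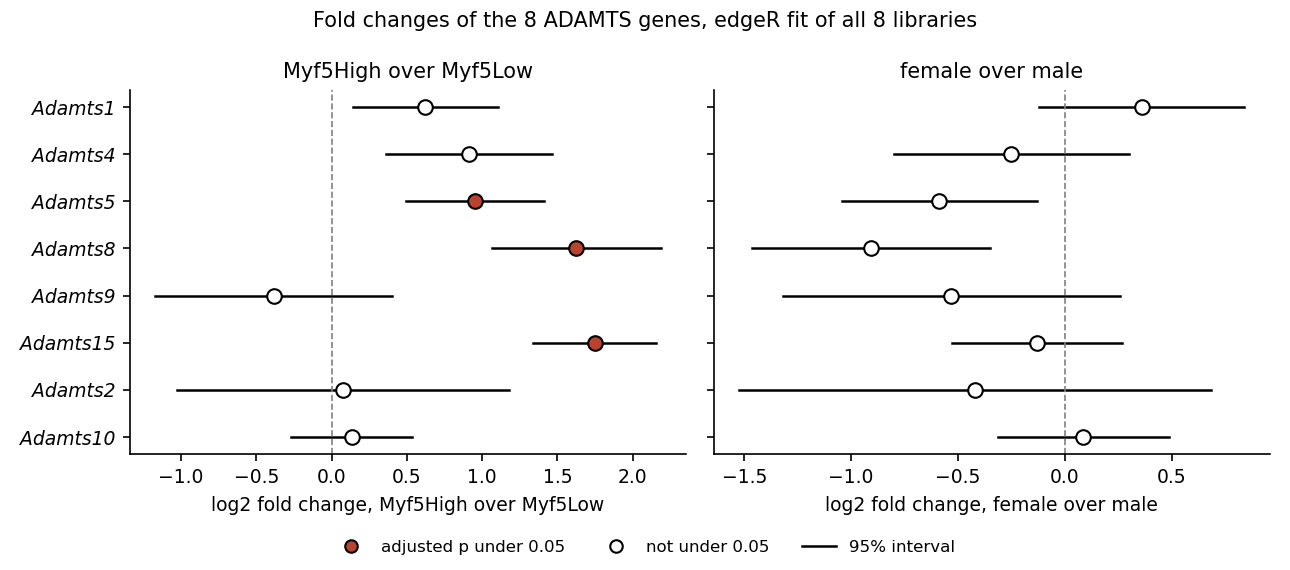
Log2 fold changes (horizontal axes) of the 8 genes between the fractions (left) and between the sexes (right), from the edgeR fit of all 8 libraries; lines are 95% intervals and filled points have an adjusted p under 0.05. Filled points are Adamts5, Adamts8 and Adamts15 on the left, and there are 0 on the right.

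Per length of transcript, the 8 genes spanned a wide range. Levels per kilobase were computed as CPM over the length of all annotated exons (RPKM), which makes genes of different length comparable but counts exons that these cells may not use. Adamts1 led with 41.6 ± 15.4 RPKM (SD over 8 libraries) and was the highest of the 8 in all 8 libraries. Adamts4 with 15.8 ± 7.36 RPKM and Adamts5 with 15.2 ± 6.69 RPKM did not differ beyond their spread, and Adamts4 was above Adamts5 in 5 of 8 libraries. Adamts10 followed with 10.7 ± 1.33 RPKM and Adamts15 with 9.17 ± 5.33 RPKM, in an order that held in 4 of 8 libraries. Adamts15 had a higher mean than Adamts10 in Myf5High (14.2 and 14.1 RPKM as female and male means, beside 10.6 and 11.8 RPKM), and a lower one in Myf5Low (3.82 and 4.62 RPKM, beside 11.4 and 9.11 RPKM). Adamts8 had 6.42 ± 3.74 RPKM, and a gap without overlap separated it from Adamts9 at 1.01 ± 0.345 RPKM and Adamts2 at 0.839 ± 0.343 RPKM. Adamts9 and Adamts2, whose ranges overlapped, were the lowest of the 8 in turn in all 8 libraries.

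Of the 8 genes, 4 lie in 2 pairs of neighbours. Adamts15 and Adamts8 lie 20109 bases apart on chromosome 9, on opposite strands and pointing away from each other. Adamts1 and Adamts5 lie 53059 bases apart on chromosome 16, on the same strand. GENCODE M21 annotates 0 protein-coding genes between the members of either pair. Within the pair on chromosome 9 both genes were called, and within the pair on chromosome 16 Adamts5 was.

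The comparison of the fractions was then made within each sex. In females, 2 of the 8 genes were called higher in Myf5High, where 0.196% of all tested genes were. These were Adamts15 (log2 fold change 1.89, SE 0.275, edgeR adjusted p 0.00214) and Adamts8 (2.03, SE 0.39, edgeR adjusted p 0.0247). DESeq2, and edgeR without a filter on low counts, called 3 of the 8 in females. They added Adamts5, which stood at 1.18 in the main fit (edgeR adjusted p 0.156). In males 1 was called, Adamts15 (1.61, SE 0.272, edgeR adjusted p 0.0158), where 0.119% of tested genes were called higher. In males Adamts8 stood at 1.22 (SE 0.366, adjusted p 0.312 in edgeR). These counts within a sex rest on single libraries. Without female Myf5High replicate 1 or 2, or without female Myf5Low replicate 1, 1 gene was called in females, and without female Myf5Low replicate 2 none was (0). The male count was 0 without male Myf5Low replicate 1 or 2. Such fits leave 1 library in a group, which is assumed to vary like the others.

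Whether the fractions differed more in females or in males was tested directly, as an interaction (female effect less male effect, log2). It was called for 0 of the 8 genes by edgeR and for 0 by DESeq2. None of the 8 (0) had an unadjusted p under 0.05, a level that 4.54% of tested genes reached, and 0% of tested genes were called. For Adamts15 the interaction was 0.28 (95% interval -0.51 to 1.08), and for Adamts8 it was 0.82 (95% interval -0.29 to 1.92). The most negative was that of Adamts9, -1.38 (95% interval -2.96 to 0.19). Intervals this wide do not show that the sexes act alike. With the pool as a block, 1.16% of tested genes were called between the fractions, 0.281% in females and 0.222% in males, and the calls among the 8 genes were the same.

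**Figure D3:**
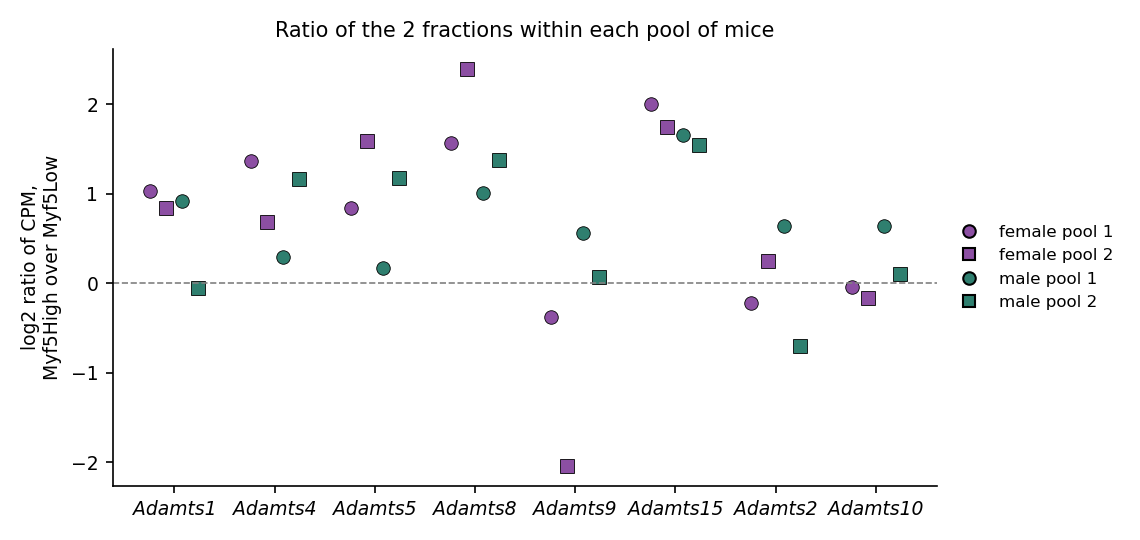
Log2 ratio of CPM in Myf5High over Myf5Low (vertical axis) within each of the 4 pools, taken as pairs by pool number, for each gene. Adamts15 lies between 1.54 and 2.00 in all 4 pools, and Adamts9 and Adamts10 lie below 0 in both female pools and above 0 in both male pools.

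Between females and males over both fractions, 0 of the 8 genes were called by edgeR and 0 by DESeq2, in a comparison where 1.65% of tested genes were called by edgeR. At an unadjusted p under 0.05 there were 2, Adamts8 and Adamts5, against 13.9% of tested genes. Adamts8 stood at -0.91 on the log2 scale, female over male (SE 0.264, adjusted p 0.1 in edgeR). Its group means were 8.87 ± 2.23 CPM in female and 22.1 ± 1.45 CPM in male Myf5Low, and 36.3 ± 5.99 and 51.3 ± 6.01 CPM in female and male Myf5High (SD, n = 2 each). Adamts5 stood at -0.59 (SE 0.217, adjusted p 0.214 in edgeR), and passed the threshold without male Myf5High replicate 1 (-0.77, edgeR adjusted p 0.034). Adamts15 had a log2 fold change of -0.13 between the sexes (95% interval -0.53 to 0.27). These libraries hold 2 independent pools per sex, if the fractions of a pool come from the same mice.

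Of the remaining 11 ADAMTS proteases, 5 had enough counts to be tested and 2 had 0 counts in all libraries. In the comparison of the fractions edgeR called 0 of the 5 (2 at an unadjusted p under 0.05), and DESeq2 called 0. Their median log2 fold change was 0.36. The most abundant were Adamts20 and Adamts12, which are outside the list of 8. Their mean CPM over the 8 libraries was above that of Adamts2 and Adamts9, though Adamts12 was not above Adamts9 in every library. The mean of Adamts20 (38.85 CPM) was also above that of Adamts8 (29.62 CPM), though not in Myf5High, where Adamts8 averaged 43.8 CPM. Adamts20, a hyalectanase needed for pigment cell migration, averaged 39.2 ± 11.7 CPM in Myf5High against 38.5 ± 16.6 CPM in Myf5Low (SD, 4 libraries each). Adamts12 had 15.5 ± 6.09 and 25.4 ± 7.83 CPM (SD, n = 4 each), and every pool had less of it in Myf5High, as had 8.76% of tested genes (log2 fold change -0.73, edgeR adjusted p 0.501). Adamts14, a procollagen protease like Adamts2, had the largest fold of the 5 and was higher in Myf5High in all 4 pools, at 12.8 ± 3.28 against 5.78 ± 4.55 CPM (log2 fold change 1.25, edgeR adjusted p 0.375).

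Adamtsl1, which encodes a secreted ADAMTS-like protein without a protease domain, was called higher in Myf5High. It had 114 and 116 CPM in female Myf5High libraries, 35.7 and 47.5 CPM in female Myf5Low, 124 and 106 CPM in male Myf5High, and 29.6 and 39.2 CPM in male Myf5Low. The fractions did not overlap, and the log2 fold change was 1.60 (SE 0.209, adjusted p 0.000324 in edgeR). It was 1 of 6 tested genes of the list of ADAMTS-like genes and papilin that were called. Thsd4, another of that list and a partner of fibrillin, averaged 190 CPM in Myf5High against 108 CPM in Myf5Low (log2 fold change 0.80, edgeR adjusted p 0.179).

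**Figure D4:**
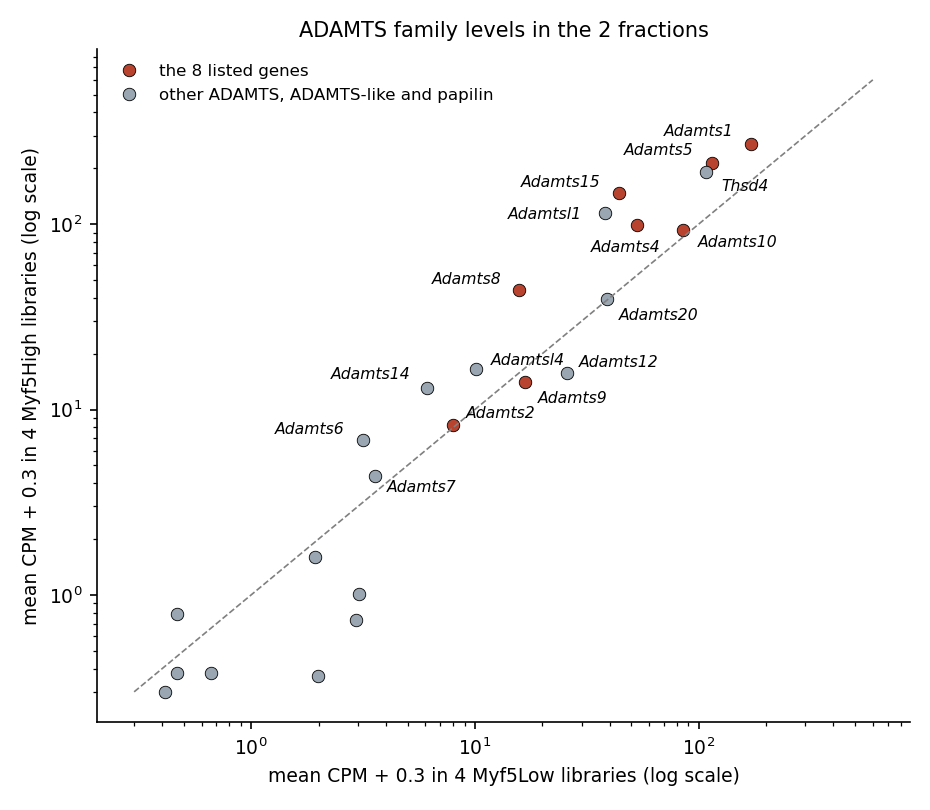
Mean CPM plus 0.3 in the 4 Myf5Low libraries (horizontal, log scale) against the 4 Myf5High libraries (vertical, log scale) for ADAMTS, ADAMTS-like and papilin genes with any counts; the dashed line marks equal levels and names are given above 3 CPM. Adamts15, Adamtsl1 and Adamts8 lie farthest above the line among genes with more than 20 CPM in Myf5High.

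Genes that work with ADAMTS proteases were followed as lists. Of the hyalectans and their hyaluronan partners, 4 of 12 could be tested and edgeR called 0 between the fractions (0 at an unadjusted p under 0.05, and 0 by DESeq2). Versican (Vcan), the main hyalectan here, had 22.6 and 28.5 CPM in female Myf5High libraries, 20.6 and 14.6 CPM in female Myf5Low, 20.4 and 38.1 CPM in male Myf5High, and 19.5 and 17.2 CPM in male Myf5Low. All 4 pools had more of it in Myf5High, although the fractions overlapped (log2 fold change 0.61, edgeR adjusted p 0.563). Cd44, a hyaluronan receptor and the most abundant of this list, averaged 31.4 CPM in Myf5High against 22.3 CPM in Myf5Low (log2 fold change 0.48, edgeR adjusted p 0.674). Aggrecan (Acan) and brevican (Bcan) had 0 counts in all libraries.

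Of the genes of fibrillar procollagen and its processing, 4 of 9 tested genes were called higher in Myf5High and 0 lower. These were Bmp1, the carboxy-terminal procollagen protease (log2 fold change 1.26, edgeR adjusted p 0.0013), Pcolce2, an enhancer of it (2.73, edgeR adjusted p 0.00609), and the collagen V genes Col5a1 (1.09, edgeR adjusted p 0.0059) and Col5a3 (1.14, edgeR adjusted p 0.00128). The value of Pcolce2 was 4.64 in females (edgeR adjusted p 0.00644) and 0.81 in males (edgeR adjusted p 0.94). The difference between the sexes had an edgeR adjusted p of 0.917. Without female Myf5Low replicate 1 the value over both sexes was 3.63. Pcolce2 had 11.5 to 28.5 CPM in Myf5High and 0.235 to 9.08 CPM in Myf5Low. The lowest level, in a female Myf5Low library, was under the 3 counts taken as detectable. The size of its fold change in females and over both sexes rests in part on that level. The median of the list was 0.57. Adamts2, which acts at the other end of procollagen, is described above. Of the fibrillin microfibril genes, 2 of 9 were called higher and 0 lower, with a list median of -0.11. These were fibrillin-1 (Fbn1, 1.08, edgeR adjusted p 0.00375) and the latent TGF-beta binding protein Ltbp1 (0.94, edgeR adjusted p 0.0121). The call of Ltbp1 was lost without female Myf5High replicate 1 (edgeR adjusted p 0.09), female Myf5Low replicate 2 (0.0614) or male Myf5Low replicate 1 (0.0614). Between the sexes Ltbp1 was called lower in females (-0.78, edgeR adjusted p 0.0398), and this call was lost in 6 of 8 fits without 1 library, with edgeR adjusted p-values up to 0.202. DESeq2 called 3 of the 9 higher in Myf5High, with Ltbp4 added (0.66, edgeR adjusted p 0.107), and 2 lower in females, with Fbn1 added (-0.68, edgeR adjusted p 0.0677). Endothelial markers were also lower in females, as given above, and their part in these sex differences was not tested.

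Inhibitors, activators and clearance receptors gave 0 calls of 9 between the fractions by edgeR (4 at an unadjusted p under 0.05), and DESeq2 called Timp3 higher. The most abundant, Timp2 and Sdc4, averaged 976 and 435 CPM over all libraries. Timp3, the tissue inhibitor that blocks ADAMTS4 and ADAMTS5, had 418 and 299 CPM in female Myf5High, against 197 and 231 CPM in female Myf5Low. In males it had 617 and 708 CPM in Myf5High and 375 and 448 CPM in Myf5Low. Its log2 fold change between the fractions was 0.72 (edgeR adjusted p 0.0639). The endothelial, glial and fibro-adipogenic markers had negative medians between the sexes, as given above. The part of the markers in the sex differences of these genes was not tested. Between the sexes Timp3 was lower in females (-0.92, edgeR adjusted p 0.0118), as was Timp4 (-1.40, edgeR adjusted p 0.00869). These were the 2 of 9 called by edgeR in that comparison. DESeq2 called them and Timp2, which had 638 to 832 CPM in females and 1078 to 1259 CPM in males (-0.62, edgeR adjusted p 0.0772). Timp3 lost that call without female Myf5High replicate 2 (edgeR adjusted p 0.11) and Timp4 without female Myf5Low replicate 2 (0.0534). Other matrix and surface metalloproteases gave 0 calls of 13 between the fractions by edgeR (2 at an unadjusted p under 0.05), and 0 by DESeq2. The most abundant of these, Adam15 and Mmp2, averaged 206 and 163 CPM over all libraries. Between the sexes edgeR called 1 of the 13, Adam19, lower in females (-1.29, edgeR adjusted p 0.0197), and DESeq2 called Mmp2, Adam15 and Adam19. The part of the markers given above by sex, and of Myh3, which was also lower in females, was not tested. Adam19 lost its call without female Myf5High replicate 1 (edgeR adjusted p 0.118), female Myf5Low replicate 1 (0.0588) or 2 (0.0678), or male Myf5Low replicate 1 (0.0596).

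Among fibro-adipogenic markers, 1 of 7 tested was called. The 8 fibro-adipogenic genes summed to 1413 to 1833 CPM in Myf5High and 785 to 1267 CPM in Myf5Low, without overlap, and the called gene was Dpt (log2 fold change 1.05, edgeR adjusted p 0.00327). Cd34, which muscle stem cells also express, and Dpt made up most of these sums. The log2 fold changes of Pi16 (-0.99), Ly6a (-0.60), Dcn (0.11), Col1a1 (0.26), Cd34 (0.58) and Lum (0.82) did not pass the threshold. Pdgfra, the defining marker of fibro-adipogenic cells, was at 1.29 to 4.33 CPM in Myf5High and 0 to 1.79 CPM in Myf5Low, higher in Myf5High in all 4 pools but too low to be tested, and Ly6a was at 18.6 to 33.9 CPM in Myf5High and 23.6 to 49.2 CPM in Myf5Low. The part of these markers in the levels of Adamts15, Adamts8, Adamts5 and the collagen genes was not tested.

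Genes with the most similar pattern were named for the 3 most abundant of the 8 by CPM. Likeness was the root mean square difference of log2 CPM after centring each gene over the 8 libraries, among the 9548 tested genes averaging 5 CPM or more. For Adamts15 the closest were Sod3 (0.233), Adamtsl1 (0.245) and Fstl3 (0.251), beside a standard deviation of Adamts15 itself of 0.938 on that scale. For Adamts5 they were Sema3b (0.177), Nudt4 (0.194) and Actn3 (0.211), beside 0.679. For Adamts1 they were Brd2 (0.21), Hras (0.221) and Irf1 (0.223), beside 0.578.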

How the data were processed

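The deposited values are raw read counts, whole numbers for each Ensembl gene. Reads were counted with HTSeq on GRCm38, per the submitters' processing notes; the aligner, annotation release and strand setting are not given in the sources used here. Of 27554 genes, 27518 matched GENCODE M21 (GRCm38) by identifier, which gave symbols, coordinates, exon lengths and coding sequences. Rows of unassigned reads were left out of library sizes; reads in no feature were 42.0% to 45.3% of each library's tally.

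Groups came from the sample titles. The members and gene lists were chosen with earlier results of these data known. Counts were filtered with filterByExpr (minimum count 10, minimum total 15, 11730 genes kept), scaled by TMM and fitted with 1 mean per group in edgeR 4.0.16 (glmQLFit and glmQLFTest, two-sided) under R 4.3.3. Benjamini-Hochberg adjustment ran over all genes tested. Standard errors were derived from each fold change and F statistic, and 95% intervals from the t distribution of the fit. Levels are CPM after TMM. Replicates differed by more than sampling noise (chi-square per degree of freedom 8.42 to 25.8). P-values rest on the spread between libraries of a group, each from a pool of 4 mice, which edgeR moderates with the spread of other genes. In the main comparison of the sexes, the fractions of a pool entered as separate libraries.

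Named were the 8 genes, genes of the lists that passed the threshold, otherwise the 2 most abundant of a list, and nearest patterns of the 3 most abundant members. Timp3, Thsd4, Acan, Bcan and markers were described besides, some after their values were seen.

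Myf5High and Myf5Low libraries of a sex and number carry the same pool number in the labels and were taken as pairs. That both came from the same mice was inferred from these numbers and is not stated. Deviations of paired libraries from their group means had a correlation of 0.0275 in females and -0.000273 in males across 11730 genes. The test was tested on simulated data for the comparison of the fractions: of 200 genes among 11730 changed by a log2 fold change of 2, it recovered 141 with 11 false calls, and made 0 calls with none changed. Counts cover counting error only where floors are given. Alternatives were RLE scaling, no filter, a mean of at least 50 counts, DESeq2 1.42.0, the pool as a block, fractions summed per pool, and leaving out each library. A result that needs a withheld item is not reported here.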

Additional observations from a re-analysis of the deposited data

Results flagged for a closer look

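In groups of 4 libraries, male Myf5High replicate 2 stood far from the others for 2 genes, out of 32 groups examined for the 8 genes, and chance gives about 1 in 20. It had 149 CPM of Adamts4 where the remaining male libraries had 50.9, 62.7 and 65.9 CPM. Those male libraries are of both fractions, and Adamts4 was higher in Myf5High in all 4 pools. The remaining Myf5High libraries had 62.7, 88.3 and 96.5 CPM of Adamts4. Male Myf5High replicate 2 had 307 CPM of Adamts5 where the remaining Myf5High libraries had 174, 186 and 187 CPM. The 16 immediate early genes of dissociation summed to 38700 CPM in that library and to 22900 CPM in male Myf5High replicate 1. They summed to 39000 CPM in female Myf5High replicate 1, where Adamts5 had 187 and Adamts4 88.3 CPM. Their part in these values was not tested. Adamts9 and Adamts10 were lower in Myf5High in both female pools and higher in both male pools. The test of that difference (female effect less male effect, log2) gave -1.38 for Adamts9 and -0.48 for Adamts10, both with an edgeR adjusted p of 1.0.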

How the results depend on the processing

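Of 78 values of the members' log2 fold changes between the fractions and between the sexes under other scalings, filters, tests and blocks, 77 kept their direction and side of the threshold, and Adamts4 became called without a filter on low counts. Among 128 values without 1 library, 114 did. Adamts2 between the fractions then ran from -0.48 to 0.44, and Adamts4 between the sexes from -0.50 to 0.13. The number of the 8 genes called, without 1 library, ran from 2 to 4 between the fractions, from 0 to 3 in females, from 0 to 1 in males, and from 0 to 1 between the sexes. With the pool as a replicate block the numbers called were 3 between the fractions, 2 in females, 1 in males and 0 for the interaction, the same genes as without it. With the block Adamts5 had an edgeR adjusted p of 0.048, and Adamts15 of 0.000171. Over all tested genes, 141 were called between the fractions, 291 without a filter, 234 by DESeq2, and 82 to 243 without 1 library. Between the sexes 194 were called, 477 without a filter, 371 by DESeq2, and 82 to 558 without 1 library. The cause of these shifts was not tested. Adamts2 and Adamts9 had the fewest counts of the 8 genes, and the part of low counts in their wide intervals was not tested.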
